A study of Mus musculus with 51 samples.

Results

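Collagens are the most abundant proteins of the extracellular matrix, and each is built as a triple helix of chains. The genes described here are the members of that family in a count table of mouse oesophageal, stomach and intestinal cells, taken by symbol (Col, a type number, the letter a and a chain number). Col17a1, the hemidesmosome collagen of basal keratinocytes, was left out by the same rule. That gave 43 genes of the 52636 in the table, and all 43 had a count in at least 1 of the 51 libraries. By textbook class they were 11 fibrillar collagens, 6 basement membrane (type IV) collagens, 6 beaded filament (type VI) collagens and 9 FACITs, which sit on the surface of fibrils. The others were 3 short chain collagens, 3 transmembrane collagens, the multiplexins Col15a1 and Col18a1, the anchoring fibril collagen Col7a1, and Col26a1 and Col28a1.

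The study sequenced total RNA of cells sorted on EpCAM, an epithelial surface protein, on a YFP reporter of Krt8, a keratin of simple and columnar epithelium, or on both, and its main subject was oesophagus that carried SmoM2. SmoM2 is a permanently active form of Smoothened, the signal transducer of the Hedgehog pathway, and the Krt5 promoter directs it to basal squamous cells. The SmoM2 group (n = 6, Krt5-SmoM2, CD1, high EpCAM) was set against WT oesophagus (n = 6, CD1, low EpCAM), so that genotype and gate changed together. In K8YFP+ (n = 3) and K8YFP- (n = 3), both Krt5-SmoM2-Krt8YFP oesophagus of mixed background with high EpCAM, the cells did or did not carry YFP. Sox9cKO (n = 4, Krt5-SmoM2-Sox9fl/fl, strain not given, high EpCAM) was set against SmoM2. Krt5-SmoM2 cells labelled 3w and 7w were sorted as high EpCAM (EpHi) or low EpCAM (EpLo), with n = 4 in each of the 4 groups, no strain given, and no statement of the point from which the weeks run. All other groups came from Krt8YFP mice without SmoM2. They were E13.5 oesophagus (Embryo, n = 2, mixed background, EpCAM and YFP), cells of the columnar part of the junction (n = 4, mixed background, high EpCAM and YFP), cells of its squamous part (n = 3, strain not given, high EpCAM, no YFP), and YFP cells of stomach (n = 2) and gut (n = 2), both of mixed background and sorted without EpCAM. Ages other than E13.5 and the weeks above are not given.

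Fibrillar collagens, chiefly types I, III and V, give connective tissue its tensile strength and are made mainly by fibroblasts and related stromal cells. Type IV collagens form the sheet-like network of basement membranes, for which both epithelium and stroma supply chains. Col4a1 and Col4a2 are the widespread pair, Col4a5 and Col4a6 are typical of squamous epithelium and smooth muscle, and Col7a1, made by keratinocytes, anchors the basement membrane of stratified epithelia to the tissue beneath.

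Library totals ran from 1606571 counts in K8YFP+ replicate 2 to 12262365 counts in SmoM2 replicate 6. Levels below are CPM, counts scaled to a common library total, and levels of different genes are compared only after division by the length of their merged exons (CPM per kb). The epithelial label held in each group: Epcam averaged between 132 ± 5.74 CPM in 7w EpLo and 917 ± 325 CPM in gut, and Krt5, the basal squamous keratin, averaged 1220 ± 333 CPM or more in each oesophageal group but Embryo. The targeted genes followed the labels in part. Smo averaged 208 ± 33.3 CPM in SmoM2 and 75.0 ± 12.7 CPM in WT (57.4 to 89.5). In the low EpCAM cells labelled Krt5-SmoM2 it averaged 96.1 ± 3.41 CPM in 7w EpLo and 76.1 ± 4.73 CPM in 3w EpLo (71.7 to 81.8), the second within the WT range. Sox9 averaged 67.6 ± 39.7 CPM in Sox9cKO (45.7 to 127) and 107 ± 44.7 CPM in SmoM2 (72.7 to 194), with overlapping ranges, so that Sox9 RNA did not separate these groups. WT replicate 1 stood apart in stromal transcripts, with 36.0 CPM of summed fibrillar collagen against 5.42 to 8.64 CPM in the other WT libraries, 4.26 CPM of the fibroblast proteoglycan gene Lum against 0 to 0.236, and 69.9 CPM of the related Dcn against 11.5 to 46.2. Sox9cKO replicate 3 stood apart in the same genes, with 44.2 CPM of fibrillar collagen against 17.3 to 20.1 CPM in the other Sox9cKO libraries. The labels do not tie samples to animals, so p-values measure the spread between these samples, which may be technical.

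The sequence upstream of the transcription start is shown for 3 collagens that moved in different comparisons: Col8a1 (higher with SmoM2), Col7a1 (lower in YFP cells) and Col3a1 (higher in YFP cells of SmoM2 oesophagus). Each is the 250 bases before the RefSeq start on GRCm38.p6, written 5′ to 3′ on the gene's strand, and lies outside the gene's exons. Col8a1 lies at chr16:57754738-57754987 on the minus strand, Col7a1 at chr9:108953336-108953585 on the plus strand and Col3a1 at chr1:45311288-45311537 on the plus strand. Capitals mark GC boxes (GGGCGG on either strand, read as CCGCCC on the other), the letters bound by Sp-family factors.
Col8a1: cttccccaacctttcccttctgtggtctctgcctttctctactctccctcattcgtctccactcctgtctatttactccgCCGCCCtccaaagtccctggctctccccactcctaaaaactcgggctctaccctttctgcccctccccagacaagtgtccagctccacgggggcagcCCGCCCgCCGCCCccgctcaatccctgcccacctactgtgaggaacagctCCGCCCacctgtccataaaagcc
Col7a1: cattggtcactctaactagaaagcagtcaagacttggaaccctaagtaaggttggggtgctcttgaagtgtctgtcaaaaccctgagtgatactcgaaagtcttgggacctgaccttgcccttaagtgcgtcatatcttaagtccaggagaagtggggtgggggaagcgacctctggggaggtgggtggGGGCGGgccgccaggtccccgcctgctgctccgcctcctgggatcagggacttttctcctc
Col3a1: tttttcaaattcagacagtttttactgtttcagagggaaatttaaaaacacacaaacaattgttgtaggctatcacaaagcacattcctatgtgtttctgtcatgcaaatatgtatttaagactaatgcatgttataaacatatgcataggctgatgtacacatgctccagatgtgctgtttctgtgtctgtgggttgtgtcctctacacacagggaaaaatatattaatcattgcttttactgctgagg

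Col8a1 carried 4 GC boxes in these bases, Col7a1 carried 1 GC box and 1 CCAAT, and Col3a1 carried no GC box and 1 TATAAA. Promoters of 300 bases (250 before and 50 after the start) were available from RefSeq for 34 of the 43 collagens, as 37 promoters. A GC box stood in 23 of the 37 (62.2%), against 35.7% of all 32851 promoters of that length. CCAAT stood in 12 (32.4%, against 37.4%) and TATAAA in 4 (10.8%, against 13.6%), each searched on both strands. The letters GACCACCCA, bound by the Hedgehog effectors of the GLI family, stood in 0 of the 37 and in 83 of all promoters (0.253%).

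In SmoM2 cells the type IV gene Col4a1 was second per kb to Col7a1 among all collagens, while Col4a1 and its partner Col4a2 were near the lower limit of counting in WT cells. Col8a1, a network-forming short chain collagen, and Col14a1, a FACIT that regulates fibril assembly, were higher as well. Col18a1, a proteoglycan-like basement membrane collagen whose end fragment is endostatin, was lower. Of the 43 collagens 18 had enough counts to be tested and 25 did not. Among these, 5 were higher and 3 lower at an adjusted p under 0.05 (edgeR's quasi-likelihood test with Benjamini-Hochberg adjustment over all genes tested), or 44.4% of those tested, against 49.5% of all 16224 genes tested (26.2% higher, 23.3% lower). As a share, the collagens were therefore called about as often as any gene, with a median log2 fold of 0.20 against 0.00577 over all genes. In bulk samples such as these, more cells of a type and more RNA per cell cannot be told apart.

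Col4a1 (GRCm38 chromosome 8, 11198423 to 11312826, minus strand) had 43.5 CPM in the lowest, 66.2 in the median and 105 in the highest SmoM2 library, against 0.107, 0.489 and 1.83 CPM in WT. Col4a2 (chromosome 8, 11312805 to 11449287, plus strand) had 20.1, 31.9 and 47.6 CPM in SmoM2, against 0, 0.171 and 0.974 CPM in WT. All 6 SmoM2 libraries lay far above all 6 WT libraries in both genes, which share a promoter region with starts 21 bases apart on opposite strands. The log2 fold was 6.58 ± 0.38 for Col4a1 (SE, adjusted p = 3.79e-09) and 6.61 ± 0.42 for Col4a2 (adjusted p = 9.85e-09), and per kb Col4a1 exceeded Col4a2 by a ratio of 1.8 in SmoM2. The other type IV chains did not follow. Col4a5 (chromosome X, 141475385 to 141689234) averaged 26.5 ± 5.51 CPM in SmoM2 and 21.5 ± 3.92 CPM in WT, a log2 fold of 0.18 (adjusted p = 0.36), and Col4a6 averaged 20.7 ± 4.88 CPM in SmoM2 and 15.5 ± 4.25 CPM in WT (0.29, adjusted p = 0.239).

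Col8a1 (chromosome 16, 57624258 to 57754737, minus strand) had 33.9 CPM in the lowest, 39.2 in the median and 75.2 in the highest SmoM2 library, against 1.01, 1.43 and 4.02 CPM in WT. Col14a1 (chromosome 15, 55307750 to 55520803) had 2.67, 5.01 and 10.1 CPM in SmoM2, against 0.107, 0.387 and 1.1 CPM in WT. Neither gene's ranges overlapped, and the log2 folds were 4.53 ± 0.32 for Col8a1 (adjusted p = 3.76e-08) and 3.43 ± 0.44 for Col14a1 (adjusted p = 1.43e-05). Col11a2, a chain of the cartilage-type fibrillar collagen XI, was higher by 1.71 ± 0.24 (adjusted p = 3.28e-05) and was the fibrillar member called. Col18a1 (chromosome 10, 77052178 to 77166548) had 7.51, 8.60 and 14.7 CPM in SmoM2 libraries, against 11.0, 24.9 and 39.6 CPM in WT, with overlapping ranges (log2 fold -1.39 ± 0.29, adjusted p = 0.000998). The other members called lower were the FACITs Col16a1, by -0.50 ± 0.14 (adjusted p = 0.00821), and Col20a1, by -0.53 ± 0.21 (adjusted p = 0.0459), which lost its call under 9 of 18 alternatives (highest adjusted p 0.125).

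Col7a1 (chromosome 9, 108953586 to 108984875) was the highest collagen per kb in both groups, at 12.6 CPM per kb in SmoM2 and 10.6 in WT. It averaged 129 ± 15.3 CPM in SmoM2 and 110 ± 34.6 CPM in WT (log2 fold 0.12 ± 0.17, adjusted p = 0.588). Next in SmoM2 came Col4a1 at 9.08 CPM per kb, Col8a1 at 5.82, Col12a1 at 5.11 and Col4a2 at 5.04. In WT the next were Col16a1 at 3.5, Col18a1 and Col12a1 at 3.49 each and Col4a5 at 3.20, and these neighbours in the order lay within their spread.

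The classical fibre collagens were low in both groups. Col1a1 had 1.26 CPM in the lowest, 3.99 in the median and 4.65 in the highest SmoM2 library, against 1.06, 1.46 and 9.62 CPM in WT, and Col3a1 had 0.73, 2.81 and 3.68 CPM in SmoM2, against 0.589, 2.14 and 13.8 CPM in WT. The highest WT value of each was that of WT replicate 1, and the log2 folds were 0.21 ± 0.52 for Col1a1 (adjusted p = 0.763) and -0.79 ± 0.62 for Col3a1 (adjusted p = 0.308). Without WT replicate 1, 11 collagens were called, the same 8 among them, and 8560 of all genes were called, against 8033 with it. Col1a1 was then higher by 1.18 (adjusted p = 0.00523), Col27a1 higher by 3.90 (adjusted p = 4.27e-05) and Col10a1 lower by -1.05 (adjusted p = 0.0245), while Col3a1 turned to 0.30 (adjusted p = 0.565).

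Partners of these collagens moved too. Of 14 genes for basement membrane partners, 10 were tested and 7 were higher, among them the perlecan gene Hspg2 (log2 fold 2.23 ± 0.16), the nidogen gene Nid1 (2.27 ± 0.43) and the laminin gene Lamb1 (1.85 ± 0.15). Of 27 genes for collagen processing and crosslinking, 19 were tested, 7 were higher and 6 lower. The procollagen protease enhancers Pcolce2 (7.30) and Pcolce (1.97) and the propeptidase Adamts14 (6.27) were higher, while the prolyl hydroxylases P4ha1 (-1.01) and P4ha2 (-1.08) and the collagen chaperone Serpinh1 (-0.63) were lower. Of 14 fibroblast genes, 10 were tested, 6 were higher (Fbln2 9.25, Fbln1 3.14, Postn 2.75, Mmp2 1.94, Pdgfra 1.85, Sparc 0.70) and 2 lower (Dcn -1.37 ± 0.38, Thy1 -3.09). The summed fibroblast list ran from 842 to 1390 CPM in SmoM2 and from 134 to 205 CPM in WT, with no member at 0 in either group and Lum at 0.316 to 1.22 CPM in SmoM2 against 0 to 0.236 CPM in WT libraries other than replicate 1. Most of the SmoM2 sum came from Fbln1 (426 CPM on average), Fbln2 (419) and Mmp2 (144), which averaged 44.4, 0.631 and 34.5 CPM in WT. Fbn1 and Fn1 did not pass (adjusted p = 0.147 and 0.848). The part of other cell types in the collagen result was not tested. Raw sample codes also differ between SmoM2 and WT, and these, the gate and the genotype cannot be told apart.

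**Figure D1:**
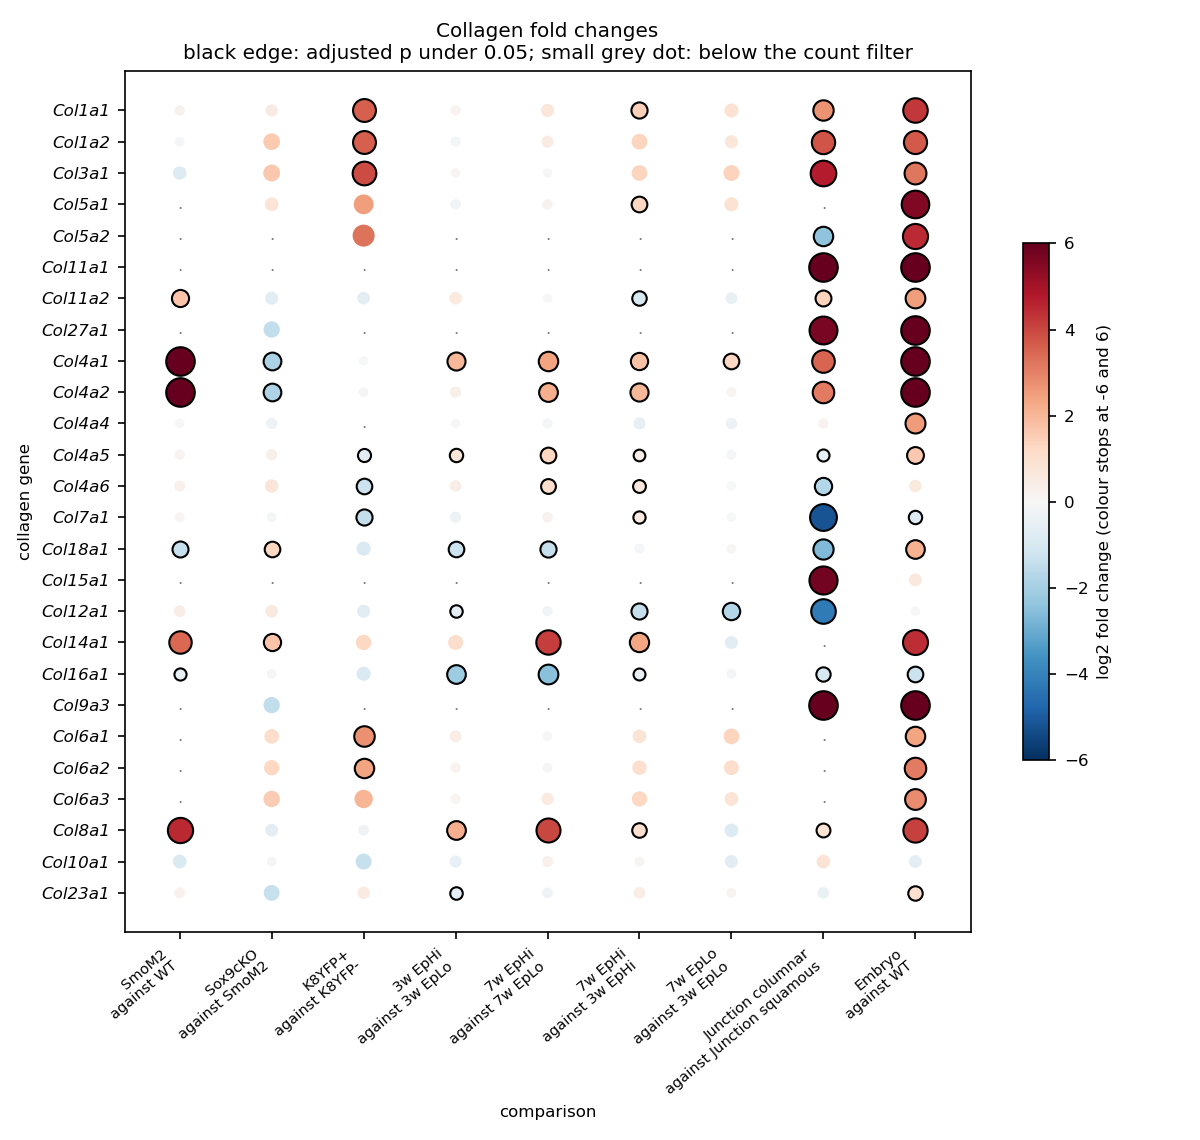
Log2 folds of selected collagens (rows) in 9 comparisons (columns). Colour gives the log2 fold, capped at 6 in either direction, a larger dot a larger absolute fold, a black edge an adjusted p under 0.05, and a tiny grey dot a gene below the count filter. Col4a1, Col4a2 and Col8a1 are called higher in SmoM2, columnar and embryo cells. Col3a1 is called in the K8YFP, junction and embryo columns and in neither gate column.

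Oesophagus labelled Sox9cKO, for a transcription factor of progenitor cells whose RNA was still counted there, held less of the type IV pair and more Col14a1 and Col18a1 than SmoM2. Of 24 collagens tested, 2 were higher and 2 lower, or 16.7% of those tested, against 2.66% of all 17047 genes (1.18% higher, 1.48% lower). At an unadjusted p under 0.05 the counts were 8 higher and 7 lower. Col4a1 had 18.5, 13.8, 11.7 and 28.4 CPM in the Sox9cKO libraries, against 43.5 CPM or more in each SmoM2 library, and Col4a2 had 10.5, 5.68, 8.16 and 11.6 CPM in Sox9cKO, against 20.1 CPM or more. No Sox9cKO library reached the lowest SmoM2 library in either gene. The log2 folds were -1.88 ± 0.29 for Col4a1 (adjusted p = 0.00648) and -1.86 ± 0.27 for Col4a2 (adjusted p = 0.0041), and both were called under every alternative. The ratio of Col4a1 to Col4a2 per kb was 1.82 in Sox9cKO, beside 1.8 in SmoM2.

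Col14a1 had 13.2, 15.2, 10.5 and 30.3 CPM in Sox9cKO, all above the highest SmoM2 library at 10.1 CPM (log2 fold 1.73 ± 0.34, adjusted p = 0.0194). Its call was lost without SmoM2 replicate 5 or without Sox9cKO replicate 4 (highest adjusted p 0.0564). Col18a1 had 13.4, 23.5, 35.0 and 23.6 CPM in Sox9cKO, against 7.51 to 14.7 CPM in SmoM2 (1.29 ± 0.28, adjusted p = 0.0302), and its call was lost under 7 of 15 alternatives, among them each of SmoM2 replicates 2 to 5 and Sox9cKO replicates 3 and 4 left out (highest adjusted p 0.158). Col4a5 (0.34, adjusted p = 0.451), Col4a6 (0.77, adjusted p = 0.121), Col7a1 (-0.11, adjusted p = 0.80) and Col8a1 (-0.63, adjusted p = 0.187) did not pass the test. The Col1a1, Col1a2 and Col3a1 folds were 0.51, 1.57 and 1.63. By edgeR 0 of 6 fibrillar genes tested were called, 5 had an unadjusted p under 0.05, and DESeq2 called 2.

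The number of calls moved with single libraries. Without Sox9cKO replicate 2 there were 11 calls, the same 4 among them, with Col3a1 (1.89), Col1a2 (1.77) and Col5a1 (1.09) higher, and Col23a1 (-2.52), Col9a3 (-3.11), Col27a1 (-2.78) and Col11a2 (-1.12) lower. Calls over all genes rose as well in that setting, from 454 to 2150. Without SmoM2 replicate 5 or without Sox9cKO replicate 4 there were 2 calls, Col4a1 and Col4a2, with 250 and 308 calls over all genes. Without Sox9cKO replicate 3, the library with the most fibrillar collagen, the Col1a2 and Col3a1 folds were 0.82 and 0.87 (adjusted p = 0.39 and 0.364). Of the fibroblast list 1 of 10 tested genes was called, Lum, higher by 2.01 ± 0.45 (adjusted p = 0.0369), and the list summed to 803 to 1210 CPM in Sox9cKO and 842 to 1390 CPM in SmoM2. Of 20 collagen-processing genes tested, 0 were called by edgeR at an adjusted p under 0.05 and 6 had an unadjusted p under 0.05, and of 11 basement membrane partners 1 was, Lamb3, higher by 0.74.

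In YFP cells of SmoM2 oesophagus, fibre-forming collagens of types I and III and the beaded filament genes Col6a1 and Col6a2 were higher than in YFP-negative cells of the same genotype. The epithelial collagens Col7a1, Col4a5 and Col4a6 were lower. Of 22 collagens tested, 5 were higher and 3 lower, or 36.4%, against 20% of all 15598 genes (13.1% higher, 6.83% lower). Same-numbered samples deviated together, and with the replicate number as a block 12 collagens were called, 8 higher and 4 lower, the same 8 among them. Calls over all genes rose with the block from 3116 to 4782.

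Col3a1 (chromosome 1, 45311538 to 45349706) had 15.2, 206 and 68.9 CPM in K8YFP+ replicates 1, 2 and 3, against 1.88, 12.8 and 11.5 CPM in K8YFP-. Col1a1 (chromosome 11, 94936224 to 94953042) had 13.0, 85.3 and 46.6 CPM in K8YFP+, against 1.41, 6.21 and 8.12 CPM in K8YFP-. Every K8YFP+ library was above every K8YFP- library in both genes, yet the K8YFP+ libraries differed among themselves by more than the K8YFP- libraries did. The log2 folds were 3.91 ± 1.01 for Col3a1 (adjusted p = 0.0316), 3.60 ± 0.80 for Col1a1 (adjusted p = 0.0196) and 3.60 ± 0.88 for Col1a2 (adjusted p = 0.0263). Col6a1, a chain of the beaded filaments that surround cells, had 4.32, 20.5 and 10.7 CPM in K8YFP+, against 0.938, 3.0 and 2.63 CPM in K8YFP- (2.76 ± 0.67, adjusted p = 0.026), and Col6a2 was higher by 2.40 ± 0.68 (adjusted p = 0.043). Col5a1 (2.5, adjusted p = 0.0677), Col5a2 (3.28, adjusted p = 0.0572) and Col6a3 (2.06, adjusted p = 0.118) had positive folds that did not pass.

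These calls rested on few libraries. Without K8YFP+ replicate 2 the fold of Col1a1 was 2.79 (adjusted p = 0.048), that of Col1a2 was 2.55 (adjusted p = 0.0646) and that of Col3a1 was 2.56 (adjusted p = 0.0808). Col1a2, Col3a1, Col6a1 and Col6a2 each lost the call when any of K8YFP+ replicates 2 and 3 or K8YFP- replicates 1, 2 and 3 was left out, with highest adjusted p of 0.0888, 0.0958, 0.0815 and 0.115. Col1a1 lost it without K8YFP- replicate 2 or 3 (highest adjusted p 0.0598). In all, 4, 3, 4, 3 and 2 collagens were called without K8YFP+ replicate 2, K8YFP+ replicate 3, K8YFP- replicate 1, K8YFP- replicate 2 and K8YFP- replicate 3. Calls over all genes fell too, from 3116 to 2217, 1804, 2186, 2045 and 1016 in the same settings.

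Several stromal marker genes were higher with the fibre collagens. Lum had 1.49, 15.6 and 9.96 CPM in K8YFP+ replicates 1, 2 and 3, against 0.352, 2.25 and 3.18 CPM in K8YFP-, and Dcn had 13.6, 108 and 101 CPM in K8YFP+, against 4.22, 36.3 and 24.4 CPM in K8YFP-, with folds that did not pass (adjusted p = 0.0917 for Lum and 0.11 for Dcn). Replicate 2 of K8YFP+ was highest in both and in fibrillar collagen, and replicate 1 lowest in each. Of the fibroblast list 6 of 13 tested genes were higher and 0 lower (Postn 4.06, Mfap5 3.89, Fbn1 3.86, Dpt 3.71, Fn1 2.66, Pdgfra 1.99), although the list as a sum ran from 576 to 744 CPM in K8YFP+ and from 714 to 976 CPM in K8YFP-. Its 2 members with the most counts in K8YFP- had negative folds that did not pass, Fbln2 (99.7 CPM on average in K8YFP+ and 349 CPM in K8YFP-, adjusted p = 0.0543) and Fbln1 (220 CPM in K8YFP+ and 346 CPM in K8YFP-, adjusted p = 0.387). The endothelial list summed to 26.2 to 155 CPM in K8YFP+ and 12.8 to 18.8 CPM in K8YFP-, with Pecam1 higher by 2.12 ± 0.47 (adjusted p = 0.0195). Flt1 did not pass (3.35, adjusted p = 0.0944). Kdr (median 0.298 CPM in K8YFP+ and 0.469 CPM in K8YFP-) and Tek (0.447 and 0.821) had lower medians in K8YFP+. So did Tie1 (0.149 and 0.321) and Emcn (0 and 0.214), while Cdh5 had a higher one (1.94 and 0.704). The mural and muscle list summed to 7.34 to 312 CPM in K8YFP+ and 8.33 to 19.5 CPM in K8YFP-. The lowest K8YFP+ sum thus lay below every K8YFP- library, and Acta2, Myh11, Rgs5 and Tagln did not pass (adjusted p = 0.0793 to 0.195). No member of these 3 lists averaged 0 in either group. Their part in the collagen result was not tested.

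The collagens of squamous epithelium ran the other way. Col7a1 had 45.9, 26.8 and 27.8 CPM in K8YFP+, against 120, 131 and 107 CPM in K8YFP- (log2 fold -1.43 ± 0.20, adjusted p = 0.00458). Col4a6 had 17.1, 13.1 and 16.2 CPM in K8YFP+, against 38.1, 49.8 and 62.2 CPM in K8YFP- (-1.29 ± 0.20, adjusted p = 0.00671), and Col4a5 had 26.4, 23.7 and 24.9 CPM in K8YFP+, against 45.5, 54.6 and 60.1 CPM in K8YFP-. None of these ranges overlapped, and the Col4a5 fold of -0.70 ± 0.16 (adjusted p = 0.0195) lost its call without K8YFP+ replicate 3 or K8YFP- replicate 3 (highest adjusted p 0.0795). Krt5 fell beside them, by 1.17 on the log2 scale (SE 0.23, adjusted p = 0.0126). Col4a1 and Col8a1, which were higher with SmoM2, did not separate by YFP. Col4a1 averaged 17.3 ± 9.11 CPM in K8YFP+ and 21.9 ± 15.7 CPM in K8YFP- (-0.02 ± 0.61, adjusted p = 0.985), and Col8a1 averaged 20.4 ± 2.17 CPM in K8YFP+ and 31.7 ± 14.5 CPM in K8YFP- (-0.26 ± 0.38, adjusted p = 0.654). Of 12 basement membrane partners tested, 8 were lower, among them Lamb3 (-1.73), Hspg2 (-1.54) and Lama5 (-1.43), and 2 were higher, Lama4 (3.58), a laminin gene typical of vessels and mesenchyme, and Nid1 (2.99). Of 18 collagen-processing genes tested 1 was higher, P4hb (1.03), and 5 were lower.

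**Figure D2:**
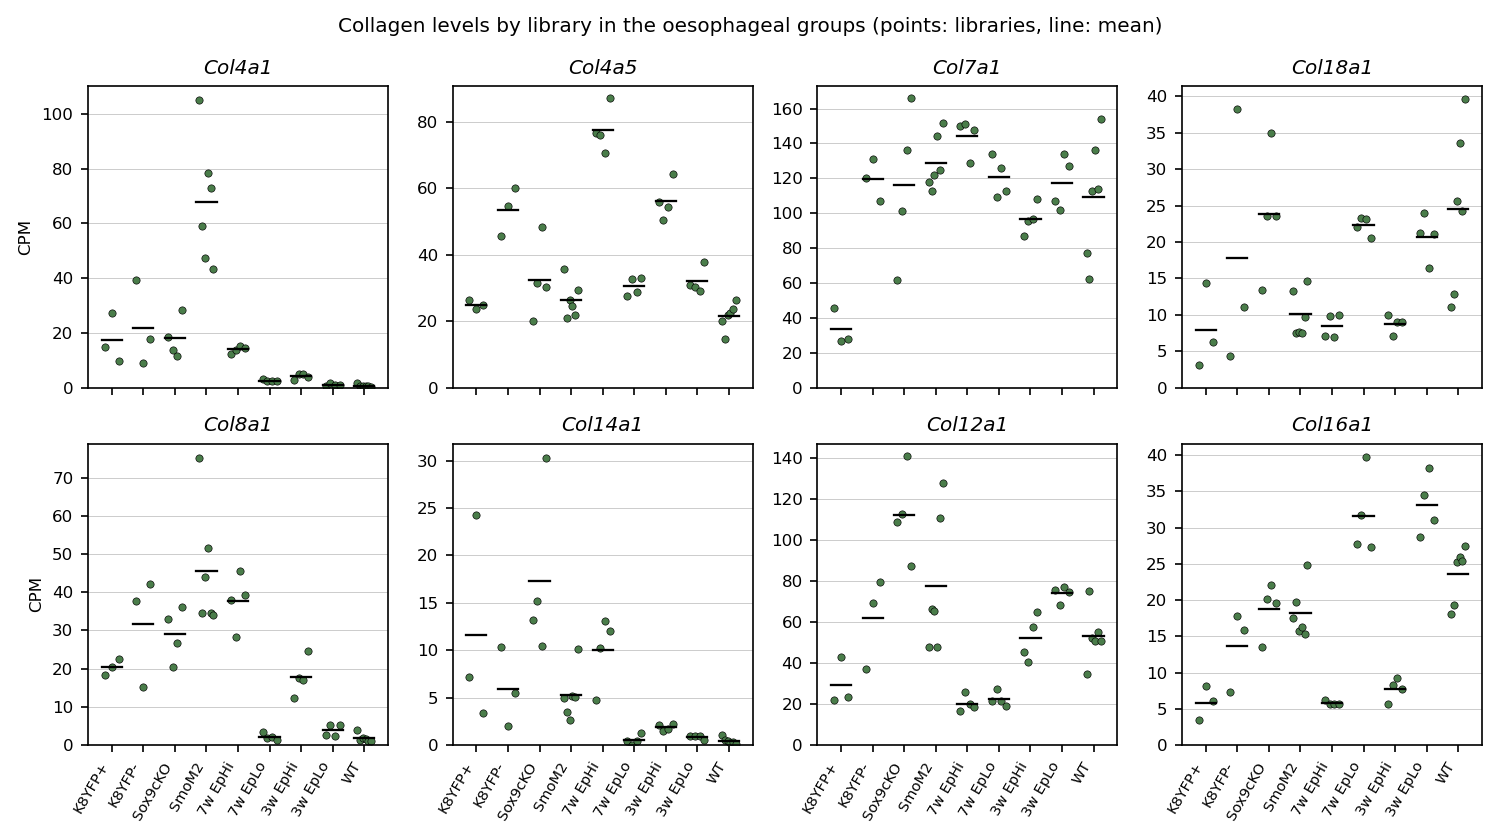
CPM of 8 collagens in 9 oesophageal groups. Each point is 1 library and each line the group mean. Col4a1 is at 43.5 CPM or more in SmoM2, at 12.4 to 15.3 in 7w EpHi, at 2.87 to 4.85 in 3w EpHi and at 1.83 or less in WT, Col8a1 is higher in both EpHi groups than in both EpLo groups, Col7a1 is low in K8YFP+ (26.8 to 45.9 CPM), and Col16a1 is lower in each EpHi group than in its EpLo group.

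Within SmoM2 oesophagus, cells of high and low EpCAM differed in basement membrane collagens at both times. No fibrillar collagen passed the test of the gate at either time in the fits without a replicate block. At 7 weeks, 6 of 23 collagens were higher in 7w EpHi than in 7w EpLo and 2 were lower, or 34.8%, against 32.3% of all 17263 genes (15.5% higher, 16.8% lower). Among the 6 were 4 of the 6 type IV genes: Col4a1 (log2 fold 2.41 ± 0.32), Col4a2 (2.18 ± 0.38), Col4a5 (1.31 ± 0.13) and Col4a6 (1.1 ± 0.19), and the others were Col8a1 (4.03 ± 0.34) and Col14a1 (4.17 ± 0.46), with adjusted p of 8.4e-05 or less. The lower members were Col16a1, a FACIT found near epithelial basement membranes (-2.49 ± 0.16, adjusted p = 2e-11), and Col18a1 (-1.44 ± 0.27, adjusted p = 0.000221). All 8 were called under every alternative.

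Col8a1 had 38, 28.2, 45.5 and 39.3 CPM in 7w EpHi, against 3.48, 1.78, 1.99 and 1.40 CPM in 7w EpLo. Col4a5 had 76.8, 76.2, 70.6 and 87.2 CPM in 7w EpHi, against 27.6, 32.8, 28.8 and 32.9 CPM in 7w EpLo. Col16a1 had 6.21, 5.65, 5.73 and 5.64 CPM in 7w EpHi, against 27.7, 31.8, 39.8 and 27.4 CPM in 7w EpLo. The gates did not overlap in any of these. Of 5 fibrillar genes tested 0 were called by edgeR or by DESeq2, and 0 had an unadjusted p under 0.05 (median log2 fold 0.19), with folds of 0.71 for Col1a1 and 0.01 for Col3a1.

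At 3 weeks, 4 of 23 collagens were higher in 3w EpHi than in 3w EpLo and 4 lower, or 34.8%, against 15.2% of all genes (7.35% higher, 7.84% lower). Col8a1 had 12.4, 17.5, 17.1 and 24.5 CPM in 3w EpHi, against 2.73, 5.34, 2.26 and 5.17 CPM in 3w EpLo (2.17 ± 0.32, adjusted p = 2.59e-05). Col4a1 had 2.87, 4.85, 4.76 and 3.68 CPM in 3w EpHi, against 0.455, 1.83, 0.834 and 0.807 CPM in 3w EpLo (1.97 ± 0.40, adjusted p = 0.00103), and neither gene's ranges overlapped. Col4a5 (0.76 ± 0.13), Col16a1 (-2.16 ± 0.16) and Col18a1 (-1.29 ± 0.27) were called in the direction they had at 7 weeks. Of 5 fibrillar genes 0 were called by either tool, and 1 had an unadjusted p under 0.05. The calls of Col20a1 (0.90), Col12a1 (-0.56) and Col23a1 (-0.58) were lost under 8, 6 and 10 of 13 alternatives. The numbers paired these samples, and with the block 12 collagens were called, 7 higher and 5 lower, the same 8 among them. Calls over all genes rose with the block from 2622 to 5969. Without any of 3w EpHi replicates 1 and 2 or 3w EpLo replicates 1, 3 and 4 there were 5 calls. The gate effect differed between the times for Col14a1 (interaction 3.05 ± 0.74, adjusted p = 0.0248) and Col8a1 (1.86 ± 0.49, adjusted p = 0.0395), or 2 of 23 collagens against 2.31% of all genes (1.55% higher, 0.759% lower). These were lost under 6 and 12 of 21 alternatives, and the count was 0 without 3w EpLo replicate 2 or 7w EpLo replicate 3 and in the fit of all libraries. It was 1 without any of 3w EpHi replicates 1 to 3, 3w EpLo replicates 1, 3 and 4, 7w EpHi replicates 1, 3 and 4 or 7w EpLo replicates 1, 2 and 4.

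Between the times, the type IV genes other than Col4a3 and Col4a4 were higher at 7 weeks in high EpCAM cells, and Col12a1 was lower in both gates. In 7w EpHi 9 of 23 collagens were higher than in 3w EpHi and 3 lower, or 52.2%, against 41.4% of all genes (22% higher, 19.4% lower). Col4a1 had 12.4, 13.8, 15.3 and 14.4 CPM in 7w EpHi, every library above the highest of 3w EpHi at 4.85 CPM, with a log2 fold of 1.74 ± 0.29 (adjusted p = 6.13e-05). Col14a1 had 4.70, 10.2, 13.1 and 12.0 CPM in 7w EpHi, against 2.09, 1.47, 1.68 and 2.23 CPM in 3w EpHi (2.36 ± 0.37, adjusted p = 2.47e-05). Col4a2 (1.99), Col8a1 (1.03), Col4a6 (0.64), Col7a1 (0.52) and Col4a5 (0.41) were also higher. Col1a1 (1.44 ± 0.58, adjusted p = 0.0491) lost its call under 9 of 13 alternatives, including each of the 8 libraries left out, and Col5a1 (1.31, adjusted p = 0.0266) lost it without 3w EpHi replicate 4 or 7w EpHi replicate 4. Of 11 fibroblast genes tested 5 were higher in 7w EpHi than in 3w EpHi, Dpt (1.59), Mmp2 (1.45), Fbln2 (0.76), Sparc (0.62) and Fbln1 (0.54), and 0 lower, while Lum (1.34, adjusted p = 0.198) did not pass. Of the endothelial list Flt1 was lower (-3.08) and of the mural and muscle list Acta2 (-1.44), each 1 of 2 tested. Their part in the collagen result was not tested.

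Col12a1, a FACIT of tissues under tension, had 16.4, 26.0, 20.1 and 18.6 CPM in 7w EpHi, against 45.3, 40.7, 57.5 and 65.2 CPM in 3w EpHi (-1.42 ± 0.18, adjusted p = 1.42e-06). In low EpCAM cells it had 21.7, 27.5, 21.7 and 19.1 CPM in 7w EpLo, against 75.7, 68.4, 77.0 and 74.9 CPM in 3w EpLo (-1.78 ± 0.18, adjusted p = 9.75e-08). In neither gate did the times overlap. Beside it, Col11a2 (-1.01 ± 0.24, adjusted p = 0.00157) and Col16a1 (-0.46, adjusted p = 0.0421, lost under 11 of 13 alternatives) were lower in 7w EpHi. In 7w EpLo the other collagen called was Col4a1 (1.30 ± 0.43, adjusted p = 0.0201), so that 2 of 23 were called there, 8.7% against 37.9% of all genes (19.5% higher, 18.4% lower). The Col4a1 call was lost without 3w EpLo replicate 1 or 3 or 7w EpLo replicate 1. Raw sample codes differ between the times and cannot be told apart from them.

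Low EpCAM cells of SmoM2 oesophagus carry the gate of WT. Against WT, 8 of 23 collagens were higher in 3w EpLo and 2 lower (43.5%, against 47.4% of all genes, 23.1% higher and 24.3% lower). In 7w EpLo 6 were higher than in WT and 3 lower (39.1%, against 40.4%, 19.4% higher and 21% lower). Col4a2 was higher at 3 weeks (2.05) and at 7 weeks (2.19), and so were Col4a5 (0.51 and 0.38), Col4a6 (0.70 and 0.65), Col11a2 (1.30 and 0.86) and the transmembrane collagen Col23a1 (1.02 and 1.16). Col4a1 averaged 2.51 ± 0.30 CPM in 7w EpLo and 0.982 ± 0.592 CPM in 3w EpLo, and 0.66 ± 0.597 CPM in WT, with folds against WT of 1.83 (adjusted p = 0.000783) at 7 weeks and 0.53 (adjusted p = 0.367) at 3 weeks. Col20a1 (-1.14 and -0.76) and Col10a1 (-1.29 and -1.99) were lower at 3 and 7 weeks. Col12a1 was higher at 3 weeks (0.42, adjusted p = 0.0234) and lower at 7 weeks (-1.36, adjusted p = 1.14e-06). These comparisons share their WT libraries with each other and with SmoM2 against WT. Without WT replicate 1, 16 collagens were called in 7w EpLo, the same 9 among them, with Col3a1 (1.48), Col1a2 (1.41), Col1a1 (0.88), Col5a1 (1.36), Col6a1 (2.09), Col6a2 (1.72) and Col6a3 (1.51) higher. How many of all genes were called in that setting is not given here, so the rise from 9 to 16 is not set against them.

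The fibroblast list summed to 658 to 841 CPM in 7w EpHi and 119 to 158 CPM in 7w EpLo, and to 432 to 536 CPM in 3w EpHi and 150 to 172 CPM in 3w EpLo, with no member at 0 in any of these groups. Most of the 7w EpHi sum came from Fbln1 (342 CPM on average), Fbln2 (309) and Mmp2 (72.6). Most of the 3w EpHi sum came from Fbln1 (227 CPM on average) and Fbln2 (176). Of 11 members tested 3 were higher with the gate at each time and 0 lower, at 7 weeks Fbln2 (4.33), Fbln1 (2.49) and Mmp2 (1.87). Lum (1.22, adjusted p = 0.292) and Dcn (-0.09, adjusted p = 0.882) did not pass at 7 weeks. The part of these genes' source in the collagen result was not tested. Of the basement membrane partners 5 of 11 were higher in 7w EpHi than in 7w EpLo and 0 lower (Hspg2 1.99, Lamb1 1.68, Lama5 1.00, Lama3 0.57, Agrn 0.54), and of the collagen-processing genes 7 of 18 were higher and 3 lower.

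At the junction, columnar and squamous cells carried largely different collagens. Columnar cells held cartilage-type collagens (Col9a3, Col11a1, Col27a1), Col15a1 and the Col4a1 and Col4a2 pair, while squamous cells held Col7a1, Col12a1 and Col18a1. Of 23 collagens tested, 12 were higher in columnar cells and 7 lower, or 82.6%, against 74.4% of all 17185 genes (39.2% higher, 35.2% lower). Col9a3 (chromosome 2, 180597790 to 180622189), a FACIT that coats cartilage fibrils, had 57.2, 66.7, 31.5 and 62.0 CPM in the columnar libraries, against 0.627, 0.154 and 0.428 CPM in the squamous libraries (6.71 ± 0.40, adjusted p = 4.35e-08). At 14.1 CPM per kb it was the highest collagen of the columnar cells, well over Col16a1 at 3.36. Its exons share 234 bases with Tcfl5 on the opposite strand, and the strand setting of the counting is not given in the sources used here.

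Col27a1, a fibrillar collagen of cartilage, had 28, 22.1, 21 and 23.1 CPM in columnar cells, against 0.157, 0.461 and 0.428 CPM in squamous cells (5.69 ± 0.28, adjusted p = 9.6e-09). Col11a1 had 13.4, 12.8, 23.6 and 15.9 CPM in columnar cells and no count in the squamous libraries. Its 351 counts in columnar cells made it at least 109-fold higher, against a floor of 3 counts over the squamous group. Col15a1, a multiplexin of vessel and muscle basement membranes, had 10.9, 13.1, 7.23 and 15 CPM in columnar cells, against 0.157, 0.154 and 0.143 CPM in squamous cells (5.79 ± 0.45). Col4a1 had 29.2, 29.4, 14.9 and 8.31 CPM in columnar cells, against 1.41, 1.69 and 1.28 CPM in squamous cells (3.5 ± 0.49, adjusted p = 5.3e-05). No library of either group crossed into the other's range in these 5 genes. Col4a2 (3.11), Col25a1 (3.49), Col11a2 (1.36) and Col8a1 (0.87, adjusted p = 0.0252) were also higher, and Col8a1 lost its call without columnar replicate 2 or 3 or squamous replicate 3 (highest adjusted p 0.115).

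Col7a1 had 3.84, 4.59, 9.80 and 4.16 CPM in columnar cells, against 163, 156 and 160 CPM in squamous cells, where at 15.5 CPM per kb it was the highest collagen (-5.20 ± 0.22, adjusted p = 2.29e-09). Col12a1 had 2.92, 5.62, 2.33 and 2.35 CPM in columnar cells, against 62.5, 52.1 and 42.2 CPM in squamous cells (-4.26 ± 0.25, adjusted p = 3.97e-08), and Col18a1 was lower by -2.65 ± 0.17 (adjusted p = 7.2e-08). The groups did not overlap in these genes. Col5a2, which joins type I fibrils, had 0.769, 2.55, 0.933 and 1.08 CPM in columnar cells, against 4.86, 6.76 and 5.84 CPM in squamous cells (-2.40 ± 0.37). Col4a6 (-1.74), Col16a1 (-0.97) and Col4a5 (-0.48, adjusted p = 0.0113) were lower too, and Col4a5 lost its call without squamous replicate 2 (adjusted p = 0.0727).

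The type I and III genes were higher in columnar cells at low levels. Col1a1 had 5.69, 17.2, 7.93 and 6.87 CPM there, against 1.41, 1.23 and 0.855 CPM in squamous cells (2.70 ± 0.47, adjusted p = 0.000298), and Col3a1 had 2.92, 7.66, 4.67 and 6.51 CPM, against 0.157, 0.154 and 0.143 CPM (4.70 ± 0.58, adjusted p = 1.75e-05). Of the fibroblast list 7 members were tested, 1 was higher, Fn1 (3.90), and 6 were lower, among them Dcn (-3.12), Mmp2 (-5.98) and Fbln2 (-6.68). Of the members too low to test, Postn had 1.08 to 3.06 CPM in columnar cells and 0 to 0.428 CPM in squamous cells, Pdgfra 0.615 to 0.723 CPM in columnar and 0 to 0.157 CPM in squamous cells, and Fbn1 0.233 to 1.36 CPM in columnar cells and no count in squamous cells, without overlap. Lum had 0.615, 0, 0 and 1.45 CPM in columnar cells, with no count in replicates 2 and 3, and 0.157, 0 and 0 CPM in squamous cells. The list summed to 281 to 490 CPM in columnar cells and 274 to 300 CPM in squamous cells, with 1 member at 0 in columnar and 3 in squamous cells. The leukocyte list summed to 63.2 to 124 CPM in columnar cells and 30.5 to 42.6 CPM in squamous cells. Its gene Ptprc averaged 87.2 ± 27.6 CPM in columnar and 0.0987 ± 0.0857 CPM in squamous cells, while 3 of its 6 members were lower in columnar cells. The endothelial genes Tek and Tie1 averaged 14.8 ± 4.66 and 5.35 ± 2.63 CPM in columnar and 0.151 ± 0.00743 and 0.0522 ± 0.0904 CPM in squamous cells. The rest of the endothelial list did not follow them. Flt1 was lower in columnar cells (-2.21, adjusted p = 0.00596) and Pecam1 did not pass (-0.37, adjusted p = 0.101). Cdh5, Kdr, Emcn and Cldn5 each averaged 0.0968 CPM or less in columnar cells. The part of such cells in the collagen result was not tested. Raw sample codes differ between the groups and cannot be told apart from cell type.

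Stomach and gut had 2 libraries each and were compared with no group. Stomach had the lowest sum over all 43 collagens, 74.9 ± 2.33 CPM, with Col27a1 leading at 19.7 and 31.3 CPM (1.96 CPM per kb). Its Col7a1 was 1.05 and 1.57 CPM, and Col2a1 and Col5a1 had no count. The gut libraries disagreed, with all collagens at 112 ± 130 CPM and Col4a1 at 1.07 CPM in replicate 1 and 36.9 CPM in replicate 2. Gut replicate 2 also had 33.0 CPM of Col3a1, 2.48 CPM of Lum and 46.8 CPM of Dcn, against 0.713, 0 and 0.713 CPM in gut replicate 1. Gut values thus rest on 1 library.

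Embryonic oesophagus had the most collagen RNA of any group, 1400 ± 506 CPM over all 43 genes, against 284 ± 44.2 CPM in WT. Of 36 collagens tested 27 were higher than in WT and 2 lower, or 80.6%, against 64.0% of all 22370 genes (36.1% higher, 27.8% lower), with a median log2 fold of 3.22 against 0.162. All 9 fibrillar genes tested were higher. The 2 embryo libraries give little spread of their own, so the spread was shared over all 51 libraries, and age, strain and gate differ together between these groups.

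Col2a1, the main collagen of cartilage, had 121 and 222 CPM in the embryo libraries and averaged 0.0935 ± 0.0467 CPM in WT (log2 fold 10.09 ± 0.44, adjusted p = 7.12e-21). It averaged 0.407 CPM or less in each other group. Col11a1 (18.5 and 35.0 CPM, 9.09 ± 0.68) and Col27a1 (70.7 and 38.6 CPM, 8.22 ± 0.49) followed it, as did Col5a1 (36.1 and 63.4 CPM, 5.56), Col5a2 (4.47), Col1a1 (42.7 and 106 CPM, 4.23), Col1a2 (3.69) and Col3a1 (36.7 and 63.1 CPM, 3.22). Of the basement membrane genes Col4a1 had 150 and 167 CPM (7.39 ± 0.52) and Col4a2 had 83.7 and 135 CPM (7.90 ± 0.50), and Col4a5 (1.62) and Col4a4 (2.57) were higher as well. Col18a1 had 113 and 199 CPM (2.15 ± 0.37, adjusted p = 2.83e-06). Per kb it led the embryo at 22.2, before Col4a1 at 21.2 and Col2a1 at 18.6, neighbours that lay within their spread.

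Other members also rose in embryo: Col8a1 (4.12), Col14a1 (4.43), Col25a1 (6.91), Col9a3 (6.12) and the beaded filament genes Col6a1 (2.41), Col6a2 (3.10), Col6a3 (2.84) and Col6a6 (4.50). Col13a1, Col28a1 and Col9a1 had no count in WT and 19, 6 and 4 counts in embryo, which made them at least 15.5-fold, 4.91-fold and 3.26-fold higher against a floor of 3 counts over WT. Col16a1 was lower (-1.30, adjusted p = 8.76e-05), and Col7a1 had 63.7 and 122 CPM (-0.76 ± 0.26, adjusted p = 0.011), within the WT range of 62.4 to 154. The Col7a1 call was lost with the replicate number as a block, in the fit of these 2 groups alone and without Embryo replicate 1. Col12a1 (0.03), Col4a6 (0.58) and Col20a1 (-0.13) did not pass. Of the fibroblast list 7 of 14 genes were higher and 2 lower, with a sum of 641 to 992 CPM in embryo and 134 to 205 CPM in WT, and of the mural and muscle list 7 of 8 were higher (72.9 to 78.4 CPM in embryo, 6.45 to 14 CPM in WT). No member of either list was at 0. Their part in the result was not tested.

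Summed by class, fibrillar and basement membrane collagens ranked the groups differently. Fibrillar collagen was highest in embryo (493 ± 178 CPM), K8YFP+ (219 ± 199) and columnar junction cells (74.9 ± 10.3), and lower in K8YFP- (26.2 ± 14.8), Sox9cKO (25.0 ± 12.8), SmoM2 (17.5 ± 4.38), squamous junction cells (13.3 ± 1.96) and WT (11.5 ± 12.1). Basement membrane collagen was highest in embryo (410 ± 111 CPM), then in 7w EpHi (160 ± 12.9), SmoM2 (151 ± 36.0), K8YFP- (139 ± 16.9), 3w EpHi (102 ± 11.8) and Sox9cKO (94.9 ± 22.4), and lower in K8YFP+ (68.5 ± 8.99), 3w EpLo (64.3 ± 9.35), 7w EpLo (63.8 ± 6.55), columnar cells (56.3 ± 10.9), WT (40.4 ± 6.10) and squamous cells (34.8 ± 1.94). In K8YFP+ the fibrillar sum varied between libraries, at 43.7, 435 and 179 CPM, while the basement membrane sum held at 69.0, 77.2 and 59.2 CPM. The fibrillar part of the 2 sums together had a median of 75.1% in K8YFP+ (38.8 to 84.9), 58.1% in columnar cells, 54.2% in embryo, 19.4% in K8YFP-, 10.9% in SmoM2 and 15% in WT (10.6 to 47.7, the highest from WT replicate 1).

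**Figure D3:**
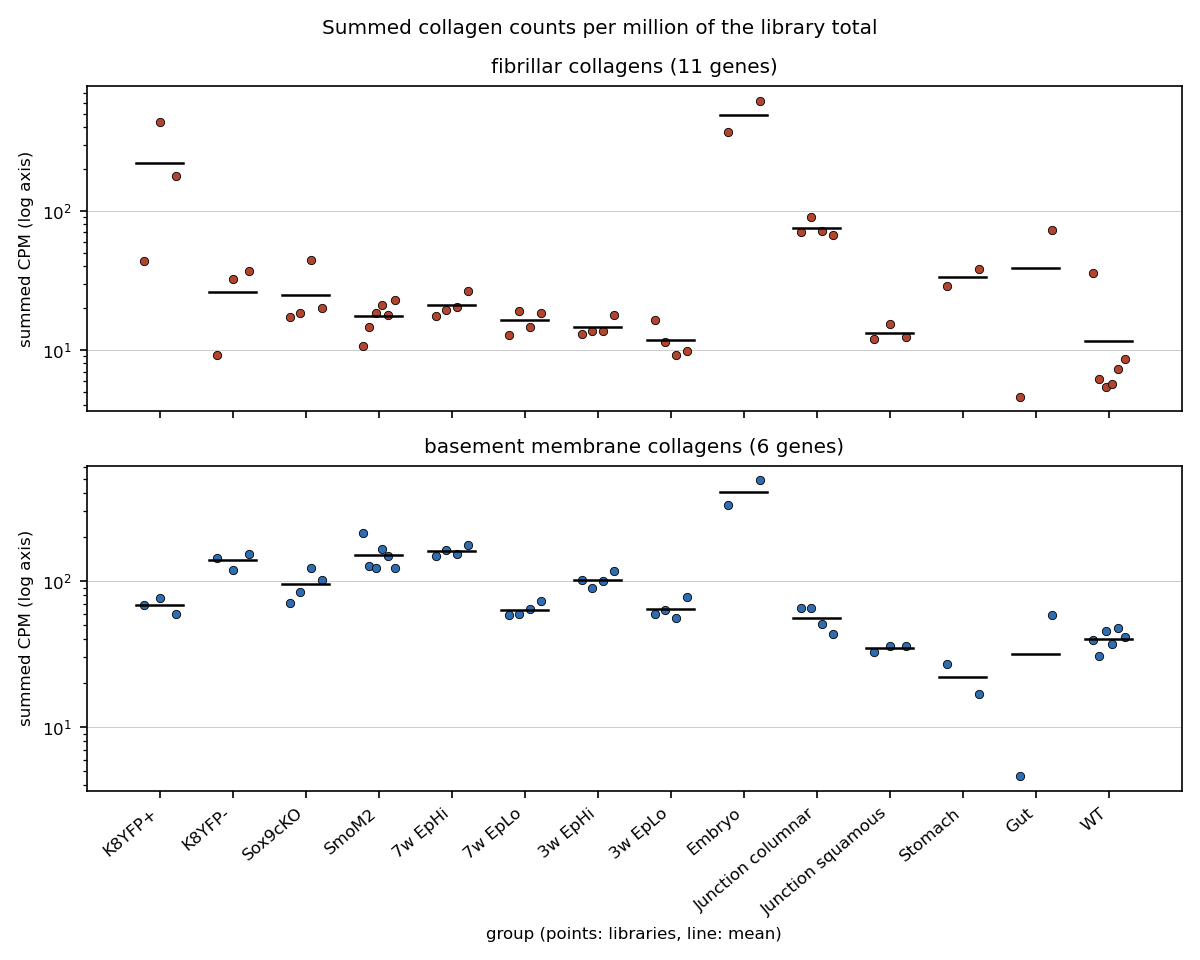
Summed CPM (log axis) of the 11 fibrillar and the 6 basement membrane collagens in 14 groups. Each point is 1 library and each line the group mean. Fibrillar sums spread over 43.7 to 435 CPM in K8YFP+ and reach 36.0 CPM in 1 WT library, while basement membrane sums stay within 123 to 215 CPM in SmoM2 and 30.9 to 48 CPM in WT.

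What the fibrillar class consisted of differed as well. Per kb, Col1a1, Col1a2 and Col3a1, the genes of interstitial fibres, made up 88.6% of fibrillar collagen in K8YFP+, 79.4% in gut, 72.3% in K8YFP-, 71.1% in WT, 68.0% in Sox9cKO and 64.8% in 7w EpHi. They made up 43.6% in SmoM2, 36.1% in embryo, 32.8% in 3w EpHi, 30.9% in columnar cells, 18.3% in stomach and 13.2% in squamous cells. Col11a1, Col11a2 and Col27a1, cartilage-type genes, made up 79.2% in stomach, 64.4% in columnar cells, 53.6% in 3w EpHi and 44.2% in SmoM2, against 0.785% in K8YFP+. In counts, the share of Col1a1, Col1a2 and Col3a1 in fibrillar CPM was 87.7, 89.1 and 88.3% in the 3 K8YFP+ libraries, although their sums differed several-fold, and 16.3 to 35.9% in the columnar libraries.

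**Figure D4:**
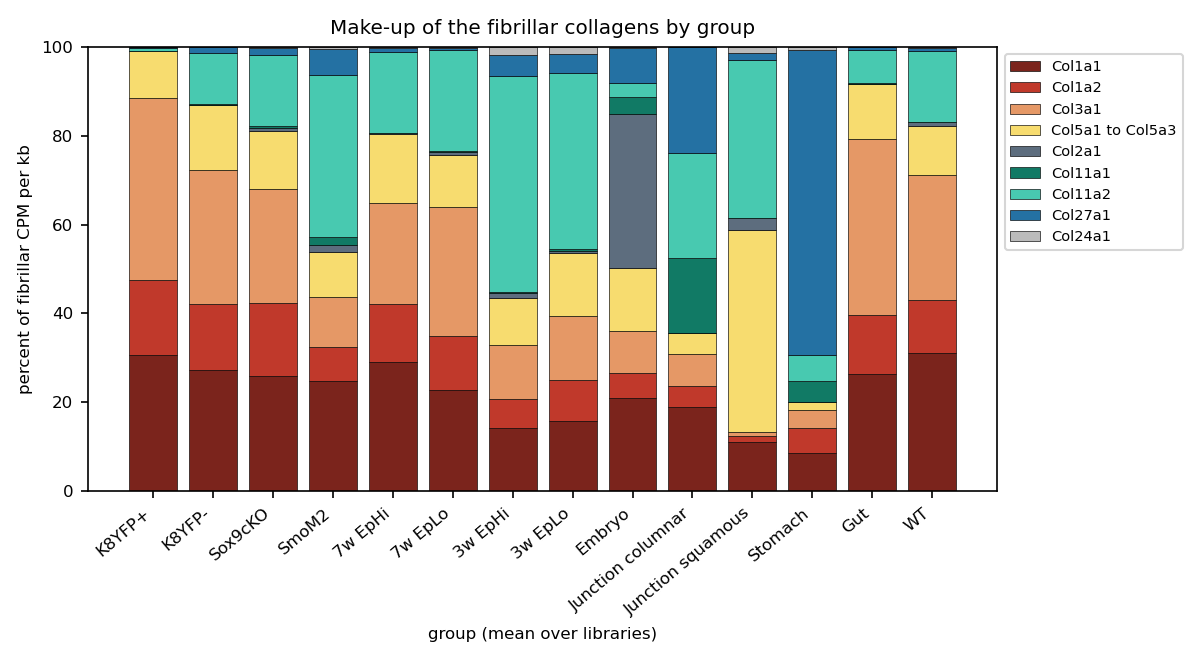
Make-up of fibrillar collagen by group, as stacked percent of summed CPM per kb. Col1a1, Col1a2 and Col3a1 together take 88.6% in K8YFP+ and 30.9% in columnar junction cells, where Col11a1, Col11a2 and Col27a1 take 64.4%.

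Across the libraries, the sum of Col1a1, Col1a2 and Col3a1 and the level of Lum, a fibroblast gene that is no collagen, were high in the same places: K8YFP+ replicates 2 and 3, WT replicate 1 within WT, Sox9cKO replicate 3 within Sox9cKO, gut replicate 2 within gut and Embryo replicate 2 within embryo. The columnar libraries departed from this, with type I and III counts and Lum at 0 in 2 of 4. The rest of the fibroblast list did not all follow Lum. Dcn too was highest in the named libraries of each group. Yet it had 37.3 to 55.4 CPM in 3w EpLo, where the type I and III sum was 2.98 to 8.95 CPM. In squamous junction cells Dcn had 16.2 to 33.2 CPM beside a sum of 1.28 to 1.72 CPM. The whole list, most of it Fbln1, Fbln2 and Mmp2, had 842 to 1390 CPM in SmoM2, beside a type I and III sum of 2.42 to 10.8 CPM. Between groups, Col4a1 and Col8a1 did not follow Lum: both were high in SmoM2 libraries, where Lum stood at 0.316 to 1.22 CPM. Within groups, Col4a1 was highest in several of the libraries high in Lum. These were WT replicate 1 (1.83 CPM), K8YFP+ replicate 2 (27.4), gut replicate 2 (36.9) and Embryo replicate 2 (167). In Sox9cKO replicate 3 it was the lowest of its group (11.7 CPM).

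**Figure D5:**
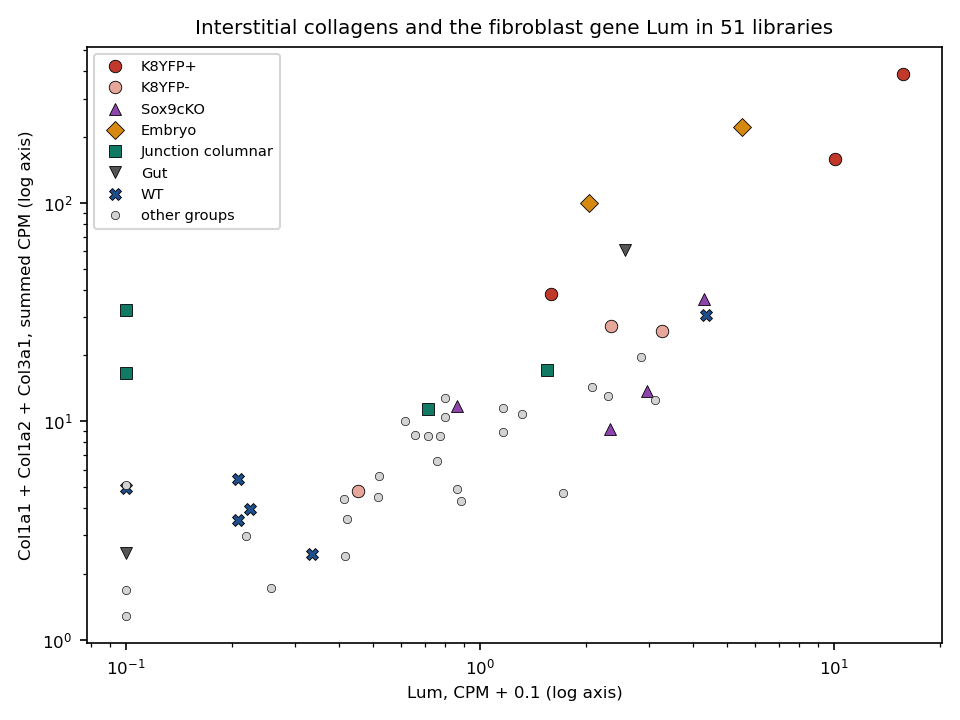
Summed CPM of Col1a1, Col1a2 and Col3a1 (vertical, log axis) and CPM of Lum plus 0.1 (horizontal, log axis) in the 51 libraries, coloured by group. K8YFP+ replicate 2 (Lum 15.6 CPM) lies at the upper right, and the columnar junction libraries lie at low Lum (0 to 1.45 CPM) with sums above those of squamous cells.

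The ratio between the chains of a type IV pair reached higher for Col4a5 and Col4a6 than for Col4a1 and Col4a2, through embryo and junction cells. In the oesophageal groups other than Embryo it did not: Col4a1 over Col4a2 ran from 0.647 to 2.0 there, and Col4a5 over Col4a6 from 1.13 to 1.86. The groups with enough counts for a ratio differed between the pairs. Per kb, Col4a1 over Col4a2 was 1.41 in K8YFP+, 1.61 in K8YFP-, 1.68 in 7w EpHi, 1.43 in 7w EpLo, 2.0 in 3w EpHi, 1.29 in embryo, 2.23 in columnar cells, 1.89 in stomach and 1.71 in gut. It was 0.647 in 3w EpLo, from 27 and 37 counts. Col4a5 and Col4a6, whose starts lie 1309 bases apart on opposite strands of chromosome X, had a ratio of 1.13 to 1.86 in the oesophageal groups other than Embryo, 3.37 in embryo, 2.82 in squamous junction cells and 6.86 in columnar junction cells.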

How the data were processed

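RNA of sorted cells was sequenced in 51 libraries of 14 groups, from total RNA with NuGEN Ovation Solo libraries on a Illumina NovaSeq, per the labels' protocols. The authors deposited whole-number counts per gene for 52636 genes, 10741 of them without a count. STAR 2.5.3a, HTSeq, edgeR and GRCm38 (mm10) stand in the submitters' processing notes, and no source used here gives the annotation or the strand setting of the counting. Gene positions and exon lengths came from GENCODE release 21 for mouse, which held 52489 of the gene IDs and all 43 collagens, and 0 value columns were left unmapped.

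Counts were tested with edgeR 4.0.16 (quasi-likelihood F test, two-sided, TMM normalization, filterByExpr with a minimum count of 10 and total of 15; R 4.3.3, limma 3.58.1) over all genes, with Benjamini-Hochberg adjustment and a threshold of 0.05. The junction, Sox9cKO, K8YFP and SmoM2 comparisons each had a fit of their own, the 3w and 7w groups were fitted together with WT, and Embryo was tested against WT within a fit of all 51 libraries. DESeq2 1.42.0, other size factors, no filter, other fits, a replicate block and each library left out were alternatives. The fits were tested on simulated data. Levels, sums and figures were made with Python 3.11.15, NumPy 2.4.6, pandas 2.3.3 and Matplotlib 3.10.9. A value of 0 was bounded by 3 counts over the group, from 0.0484 CPM in SmoM2 to 0.466 CPM in gut, and bounds cover counting error only.

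Same-numbered samples deviated together for K8YFP+ and K8YFP- (correlations of 0.29 to 0.41) and for the 3w gates (0.16 to 0.29), above the minimum of 0.1 set for pairing, but not in every pair of the other comparisons. WT replicates 3 and 5, and 4 and 6, were closer to each other (chi-square per degree of freedom 1.83 and 2.31) than the other 13 WT pairs (9.94 to 31.5), above sampling noise, and their raw names share an ending. If they are repeat runs of 1 sample, which the labels do not say, WT has n = 4 and its p-values are too small. They were kept apart (n = 6), with the pairs summed as an alternative. The text names a fixed set of collagens of each class, those with the smallest p or largest folds called in each comparison, and those highest per kb; members needed to account for a small count, or singled out in a library left out, were named after their values were seen. The members, marker lists and tests were chosen with earlier results of these data known. The result of 1 other gene is not reported here.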

Additional observations from a re-analysis of the deposited data

Results flagged for a closer look

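Of 120 groups of libraries screened for a library far from the rest of its group, 14 were flagged, and chance flags about 1 in 20 groups if these are independent. They are not, because genes and sums of the same libraries were screened side by side. Groups of 2 or 3 libraries were not screened, so K8YFP+, K8YFP-, squamous junction cells, Embryo, stomach and gut could not be flagged. WT replicate 1 was flagged for Col1a1 (9.62 CPM, others 1.06 to 1.92), Col1a2 (7.18, others 0.321 to 1.39), Col3a1 (13.8, others 0.589 to 2.33), Col5a1 (1.95, others 0.236 to 0.81), Col6a1 (3.29, others 0.373 to 0.589), Col6a2 (2.31, others 0 to 0.747), Col4a1 (1.83, others 0.107 to 0.622) and the fibrillar sum (36.0, others 5.42 to 8.64). Its Lum and Dcn levels were also the highest of the WT libraries, and their part in this was not tested.

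Sox9cKO replicate 3 was flagged for Col1a2 (12.8 CPM, others 3.14 to 3.98), Col5a2 (2.63, others 0.51 to 0.871) and the fibrillar sum (44.2, others 17.3 to 20.1). The fibrillar sum of 3w EpHi replicate 4 was 17.9 CPM (others 13.1 to 13.8), Col4a6 in 3w EpLo replicate 4 was 33.9 CPM (others 23.0 to 24.6), and Col7a1 in columnar replicate 3 was 9.80 CPM (others 3.84 to 4.59).

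The effect of the EpCAM gate differed between 7 and 3 weeks by a test of the interaction for Col14a1 (log2 difference 3.05, adjusted p = 0.0248) and Col8a1 (1.86, adjusted p = 0.0395), with edgeR.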

How the results depend on the processing

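Of 119 collagen folds called over the 12 comparisons, 82 were called under every alternative run, 37 lost the call under at least 1, and 0 reversed. Without the filter on low counts, 14 collagens were called in SmoM2 against WT (8 with it), 7 in Sox9cKO against SmoM2 (4), 6 in 7w EpLo against 3w EpLo (2), 16 in 3w EpLo against WT (10) and 29 at the junction (19). More genes are tested there. Over all genes, calls without the filter were 10456, 767 and 6113 in the first 3 of these (8033, 454 and 6551 with it). DESeq2 called 13, 8 and 4 collagens in the same 3, and 10191, 1273 and 6253 of all genes. A fit of all libraries called 13 in K8YFP+ against K8YFP- (8), 8 in Sox9cKO against SmoM2, 4 for the gate at 3 weeks (8) and 0 for the interaction (2). Calls over all genes in that fit were 6733 (3116), 1524 (454), 1378 (2622) and 42 (398) in the same order. The cause was not tested.

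With the replicate number as a block, 12 collagens were called in K8YFP+ against K8YFP- and 12 for the gate at 3 weeks, where the numbers paired the samples. Over all genes the block gave 4782 calls in the first (3116 without it) and 5969 in the second (2622). Elsewhere the samples share only a number, and the block gave 4 calls in 7w EpLo against 3w EpLo, 6 in the interaction, 6 in 3w EpLo against WT and 5 in 7w EpLo against WT (9). Over all genes it gave 7470 in 7w EpLo against 3w EpLo (6551 without it) and 2244 in the interaction (398). The counts under the block were within 1.5 times the count without it in the other comparisons.

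With WT replicates 3 and 5, and 4 and 6, each summed to 1 sample (WT n = 4), 8 collagens were called in SmoM2 against WT, 7 of them the same, and Col20a1 was not called (adjusted p = 0.0755).

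With 1 library left out at a time, calls ranged over 7 to 11 (SmoM2 against WT), 2 to 10 (K8YFP), 2 to 11 (Sox9cKO), 5 to 7 (gate at 3 weeks), 8 to 9 (gate at 7 weeks), 9 to 11 (7w EpHi against 3w EpHi), 2 to 3 (7w EpLo against 3w EpLo), 0 to 2 (interaction), 9 to 11 (3w EpLo against WT), 8 to 16 (7w EpLo against WT), 18 to 22 (junction) and 27 to 30 (Embryo). Summed basement membrane CPM with TMM-adjusted totals was 81.9 in K8YFP+ (68.5 by total) and 37.5 in squamous junction cells (34.8). Of the 43 collagens 25 were too low to test in SmoM2 against WT, and some of these were called under other settings, as Col27a1 was without WT replicate 1.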
